A study of Mus musculus with 15 samples.

Results

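Motile cilia genes encode the beating axoneme of multiciliated airway cells and the regulators that build it. The 50 genes examined here came from a list of 52 names, 6 of genes for transcriptional control or centriole amplification and the rest of axonemal or other ciliated cell genes. Of the 52 names, 2 were synonyms of genes already listed (Dnai1 of Dnaic1 and Dnai2 of Dnaic2). All 50 genes were found among the 54838 genes of the deposited tables. By role they comprised 6 control genes, 9 genes of the dynein arms and their assembly, 12 of the radial spokes and central pair, 8 of the doublet microtubules, 8 of the nexin link, the axonemal ruler and the dynein tethers, and 7 other genes of ciliated cells. The genes were listed by function, with earlier results of these data known.

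RNA sequencing was done on mouse cells in 5 groups of 3 libraries. Lung epithelial cells, titled EpCAM after the epithelial surface protein, were sorted 7 days after tail vein injection of labeling-4T1 cancer cells, with 5 lungs pooled for each replicate. They came from the niche with the treatment shSox9, from the niche with the treatment control, and from distal lung with the treatment control, so every epithelial group came from tumour-bearing lungs. Cells of 4T1, an established BALB/c mammary carcinoma line, were recovered from lungs of BALB/c mice 7 days after tail vein injection (in vivo) or taken from the dish (in vitro). The sources used here do not give which cells received the shSox9 hairpin, the strain of the epithelial hosts, or the age and sex of the mice. Between 15907316 and 30421705 counts were available per library. A gene with 0 counts could still be present at up to 3, which in any of the libraries is 0.0986 to 0.189 CPM (counts scaled to library size).

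Multiciliated cells of the airway line the bronchi and bronchioles and move mucus with their cilia. In the axoneme, dynein arms slide the doublet microtubules against each other, while radial spokes, the central pair and the nexin link turn sliding into a regulated bend. Multicilin (Mcidas), Ccno and Deup1 act in centriole amplification, the forkhead factor Foxj1 switches on axonemal genes, and Rfx2 and Rfx3 bind a paired DNA motif called the X-box in promoters of ciliary genes. Alveolar cells do not form motile cilia.

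Promoters are shown to give the letters that the forkhead and Rfx factors are known to recognise beside the genes whose values follow. RefSeq promoter entries of GRCm38.p6 matched 43 of the 50 genes, each running over 300 bases from 250 before the transcription start to 50 after it. The X-box was searched as GTTNCC and GGNAAC separated by 0 to 3 bases, which reads the same on both strands, and the forkhead letters were searched as TGTTTA on either strand; the searches were not restricted against overlap. The 4 promoters below are for Fam183b (chr11:58801911-58802210, minus strand), Pifo (chr3:106001448-106001747, minus strand), Dnah5 (chr15:28203516-28203815, plus strand) and Cfap43 (chr19:47837312-47837611, minus strand). They were chosen because the first pair held an X-box, while Dnah5 and Cfap43 held forkhead letters and were among the genes lowest and highest in niche epithelium. Each is written 5′ to 3′, with capitals marking the X-box in the first pair and the forkhead letters in the second.
Fam183b: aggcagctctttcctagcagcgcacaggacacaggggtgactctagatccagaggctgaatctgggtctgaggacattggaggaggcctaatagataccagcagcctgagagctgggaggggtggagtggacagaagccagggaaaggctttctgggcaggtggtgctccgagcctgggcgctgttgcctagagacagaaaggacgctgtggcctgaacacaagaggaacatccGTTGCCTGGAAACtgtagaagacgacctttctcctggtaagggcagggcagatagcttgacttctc
Pifo: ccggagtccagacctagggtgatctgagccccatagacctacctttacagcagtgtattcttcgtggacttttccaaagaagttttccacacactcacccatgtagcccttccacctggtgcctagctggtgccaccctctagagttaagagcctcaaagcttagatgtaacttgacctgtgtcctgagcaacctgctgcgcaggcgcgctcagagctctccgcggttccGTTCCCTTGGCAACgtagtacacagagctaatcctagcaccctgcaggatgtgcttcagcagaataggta
Dnah5: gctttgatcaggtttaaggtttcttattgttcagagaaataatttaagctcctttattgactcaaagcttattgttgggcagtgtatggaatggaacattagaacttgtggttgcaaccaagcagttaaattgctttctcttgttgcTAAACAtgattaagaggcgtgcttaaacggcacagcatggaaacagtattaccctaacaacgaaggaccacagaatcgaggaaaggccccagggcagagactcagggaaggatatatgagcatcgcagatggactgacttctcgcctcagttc
Cfap43: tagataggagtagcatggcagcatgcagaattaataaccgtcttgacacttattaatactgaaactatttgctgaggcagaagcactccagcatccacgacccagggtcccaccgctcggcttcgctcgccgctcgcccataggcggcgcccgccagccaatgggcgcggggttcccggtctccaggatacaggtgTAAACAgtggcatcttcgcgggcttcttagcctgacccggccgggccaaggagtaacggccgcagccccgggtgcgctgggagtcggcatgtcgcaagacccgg
The X-box was found in 2 of the 43 promoters (4.65%), beginning at position -16 from the start site in Fam183b and -20 in Pifo, and in 253 of 27025 genes with a promoter entry (0.936%). Forkhead letters were found in 9 of 43 (20.9%), against 4069 of 27025 genes (15.1%). Pifo is among the 9 through another start site, not printed, which has no X-box. A match describes the letters and is no evidence of binding, and a window without them says nothing about the factor.

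The genes were compared between kinds of cell on the deposited TPM scale (scaled for transcript length and library size). Of the 50 genes, 46 had their highest mean TPM in distal epithelium. There the median of the gene means was 4.76 TPM and 13 genes averaged at least 10 TPM. The lowest was Mcidas at 0.18 TPM. The highest was Tppp3, a tubulin-binding protein of ciliated cells, at 139 ± 18.7 TPM (SD, n = 3), which was 20.9% of the sum over the 50 genes. Next came the dynein light chain gene Dynlrb2, with 80.9 ± 11.8 TPM. Foxj1 averaged 26.7 ± 5.16 TPM. Medians in the other groups were 0.127 TPM in niche epithelium labelled shSox9, 0.315 TPM in niche epithelium, 0.0933 TPM in 4T1 cells in vivo and 0.0117 TPM in 4T1 cells in vitro. All 50 genes had counts in distal epithelium, while 4 had none in the 3 niche libraries labelled shSox9 (Deup1, Drc1, Lrriq1 and Armc4), 2 had none in niche libraries (Dnah5 and Dnah11), 13 had none in 4T1 cells in vivo and 22 had none in 4T1 cells in vitro. These are bulk samples, so fewer ciliated cells and less RNA per ciliated cell cannot be told apart.

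**Figure D1:**
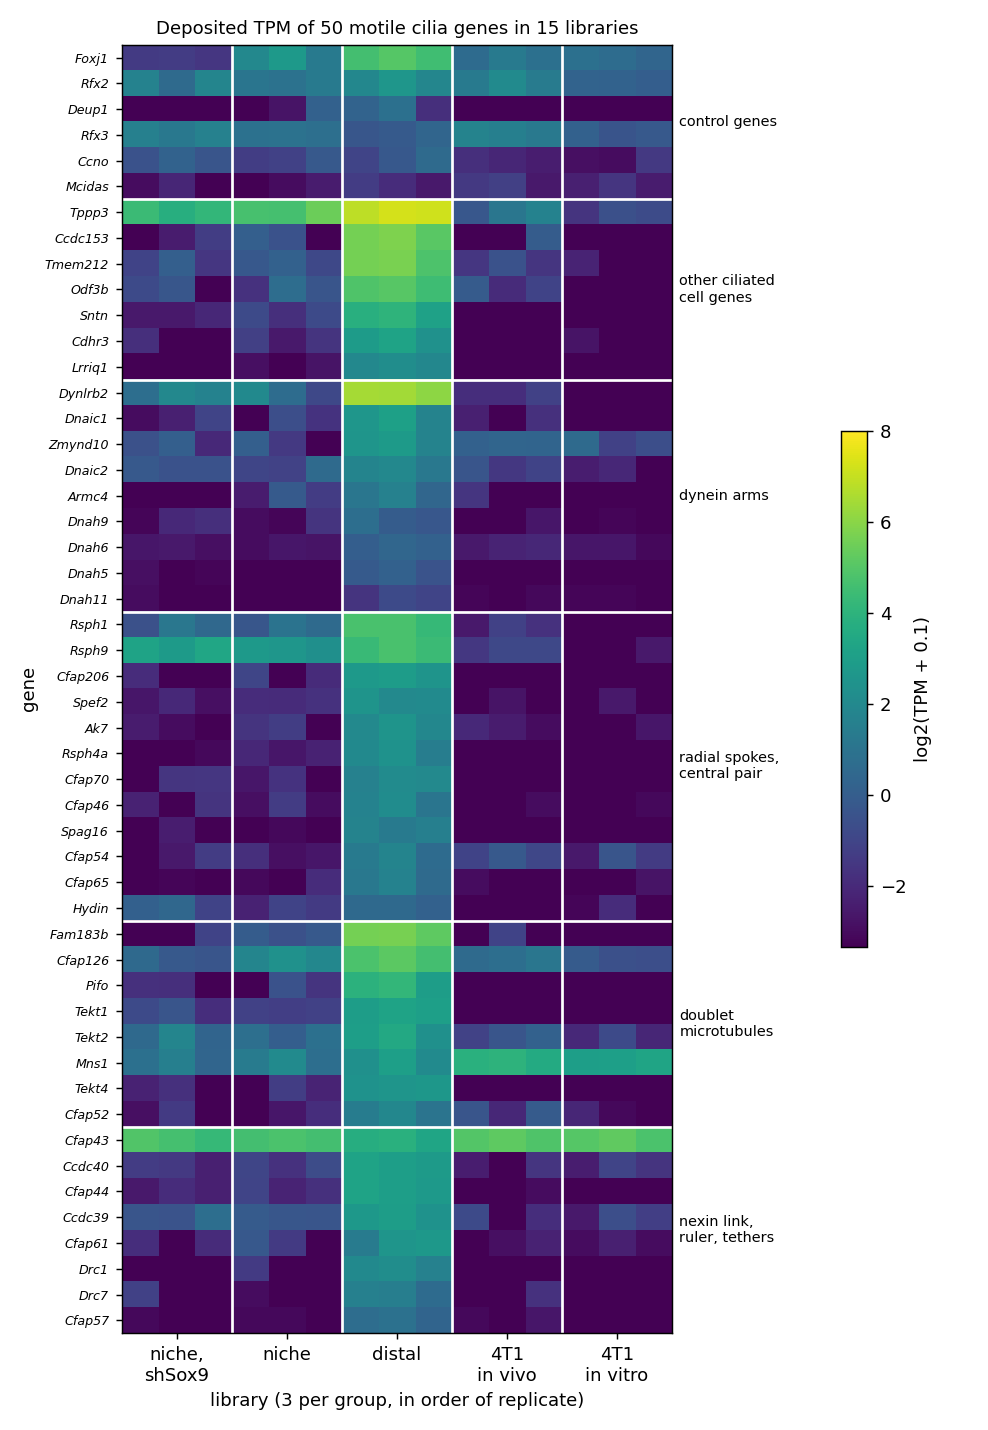
Deposited TPM of the 50 motile cilia genes (rows, by role) in 15 libraries (columns, 3 per group), as log2(TPM + 0.1). The distal mean is the highest for 46 genes, while Cfap43 is bright in every column and Rfx3 and Mns1 have their highest means in 4T1 cells in vivo.

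Summed over the 50 genes, the level was 80.4, 72.2 and 68.7 TPM in niche libraries labelled shSox9, 86.8, 93.9 and 98.2 TPM in niche libraries, and 667, 771 and 563 TPM in distal libraries. It was 61.5, 71.1 and 60.8 TPM in 4T1 cells in vivo and 47.3, 53.6 and 43.4 TPM in vitro. A large share of the sums outside distal epithelium came from 1 gene: Cfap43, which takes part in tethering inner dynein arms, supplied 33.9% in niche epithelium labelled shSox9, 49.7% in 4T1 cells in vivo and 67.1% in 4T1 cells in vitro. Without it the other 49 genes summed to 50.3, 46.7 and 49.3 TPM in niche libraries labelled shSox9, 62.6, 66.2 and 74 TPM in niche libraries, and 654, 757 and 553 TPM in distal libraries. Neither niche group overlapped with distal epithelium in these sums. Between the niche groups these TPM sums did not overlap, but without Tppp3 as well they did, at 29.6, 33.3 and 31.3 TPM in niche libraries labelled shSox9, against 36.9, 40.7 and 30.3 TPM in niche libraries. On the CPM scale the sums over all 50 genes overlapped too, at 111, 96.9 and 98.2 CPM in niche libraries labelled shSox9, against 105, 118 and 115 CPM in niche libraries. Distal libraries differed among themselves in a shared way: replicate 2 was highest for 37 genes and replicate 3 lowest for 38. A list of 16 club and secretory cell genes had the same order of distal libraries, with sums of 6220, 7868 and 4754 TPM, and its part in that order was not tested.

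By role, the 9 dynein genes summed to 4.5 ± 1.25 TPM in niche epithelium labelled shSox9, 3.94 ± 1.49 TPM in niche epithelium and 101 ± 17.8 TPM in distal epithelium (SD, n = 3 each). The 12 spoke and central pair genes summed to 11.8 ± 1.05, 8.51 ± 1.09 and 82.1 ± 13 TPM in the same groups. The 8 doublet genes summed to 5.77 ± 2.45, 9.93 ± 1.94 and 120 ± 24.6 TPM in those groups. The 7 other ciliated cell genes, led by Tppp3, summed to 18.6 ± 3.28, 34.4 ± 9.76 and 282 ± 39.6 TPM. The class with Cfap43 stood apart, at 26.5 ± 5.2, 27.2 ± 1.79 and 48 ± 5.91 TPM.

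The comparison of niche with distal epithelium asked how epithelium beside the metastatic cells differs from epithelium farther away. Nearly the whole set was lower in the niche. After the filter on low counts 48 of the 50 genes were tested, and 33 of them passed it only through the distal libraries, so that these had to differ. Of the 48, 46 were lower in niche epithelium and 1 was higher at an edgeR adjusted p below 0.05, where 25.8% and 28.5% of all genes tested were called. Without the filter, 47 of all 50 were lower and 1 was higher. The median log2 fold change of the tested genes was -5.63, and that of all genes tested was 0.02. Of the 50 genes, 35 kept less than 5% of their distal mean CPM in niche epithelium, 10 kept 5% to 25%, 3 kept 25% to 100% and 2 exceeded it.

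Among the control genes, Foxj1 (chr11:116330704-116335399, minus strand) had 5.92, 10.4 and 3.98 CPM after TMM scaling in niche libraries, against 61.5, 72.0 and 54.1 CPM in distal libraries. Every niche library was below every distal one, and the niche mean was 10.8% of the distal mean (log2 fold change -3.19, SE 0.27, edgeR adjusted p = 3.3e-06). Rfx2 had 3.96, 3.39 and 4.95 CPM in niche libraries, against 11.7, 16.5 and 10.8 CPM in distal libraries, again with no overlap (log2 fold change -1.67, SE 0.33, edgeR adjusted p = 0.0012). Rfx3, the other X-box factor of the list, did not follow: it had 6.56, 7.87 and 7.31 CPM in niche libraries, against 4.7, 5.8 and 7.86 CPM in distal libraries. The groups overlapped, and the difference did not pass the test (log2 fold change 0.25, SE 0.24, edgeR adjusted p = 0.4). On the TPM scale, however, Rfx3 had 1.77, 1.8 and 1.64 TPM in niche libraries, against 0.71, 0.82 and 1.18 TPM in distal libraries, without overlap.

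The centriole amplification genes were scarce everywhere. Ccno, a cyclin-like protein needed for making many centrioles, had 0.341, 0.392 and 0.966 CPM in niche libraries, against 0.742, 1.37 and 2.48 CPM in distal libraries. The groups overlapped although the fitted difference passed (log2 fold change -1.46, SE 0.56, edgeR adjusted p = 0.044), and without distal replicate 3 it did not (-0.93, edgeR adjusted p = 0.22); the same held without distal replicate 2 (0.076), niche replicate 1 (0.15) or niche replicate 2 (0.15). Deup1 builds the deuterosome on which centrioles form. It had 0, 0.087 and 0.362 CPM in niche libraries, against 1.73, 3.62 and 0.354 CPM in distal libraries, and the groups overlapped. With 8 counts in the 3 niche libraries and 86 in the 3 distal libraries, it was below the filter (edgeR adjusted p = 0.00036 without the filter). Mcidas had 3 counts in niche libraries and 18 in distal libraries, a ratio of scaled counts of 0.119 (95% counting interval 0.0224 to 0.407), and did not pass without the filter (edgeR adjusted p = 0.1).

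Structural genes of all classes fell, by amounts that differed between genes. All 9 dynein, 12 spoke and central pair, 8 doublet and 7 other ciliated cell genes were lower in the niche. Their median log2 fold changes were -5.43, -5.64, -5.45 and -5.65. Of the 8 nexin link, ruler and tether genes, 7 were lower and 1 was higher. However, 7 dynein, 9 spoke and central pair and 5 doublet genes passed the filter only through the distal libraries. So did 6 other ciliated cell genes and 6 nexin link, ruler and tether genes. Those had to differ, so nothing is read from the class counts against the 25.8% and 28.5% of all genes called lower and higher. For Dynlrb2 the niche libraries held 1.06, 0.392 and 0.121 CPM, against 37.5, 32.0 and 27.1 CPM in distal libraries (log2 fold change -5.83, SE 0.45, edgeR adjusted p = 1.5e-06). Dnaic1, an intermediate chain of the outer dynein arm, had 0, 0.218 and 0.121 CPM in niche libraries, against 12.2, 9.49 and 7.43 CPM in distal libraries (log2 fold change -6.37, SE 0.59, edgeR adjusted p = 6.1e-06). Of the 4 heavy chains, which are the motors themselves, Dnah6 kept 2.94% and Dnah9 2.48% of their distal means, while Dnah5 and Dnah11 had no niche counts. Dnah5, whose promoter is printed above, had 0 counts in 3 niche libraries and 538 in 3 distal libraries, at least 252-fold lower with a group floor of 3 counts. Dnah11, another outer arm motor, had 0 against 129 counts, at least 60.3-fold lower.

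Spoke head genes kept different shares of their distal levels. Rsph9 had 3.62, 3.22 and 2.72 CPM in niche libraries, against 16.8, 19.8 and 16.8 CPM in distal libraries, and so kept 17.9% of its distal mean (log2 fold change -2.47, SE 0.22, edgeR adjusted p = 3.9e-06). Rsph1, of the same spoke head, had 0.468, 1.22 and 0.966 CPM in niche libraries, against 28.2, 24.9 and 19.2 CPM in distal libraries, or 3.67% (log2 fold change -4.77, SE 0.41, edgeR adjusted p = 3.1e-06). Spag16, a central pair protein, had 1 count in the niche libraries and 363 in the distal libraries, a ratio of 0.00196 (95% counting interval 4.96e-05 to 0.011). No niche library reached a distal one for any of these 3 genes.

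Among doublet genes, Fam183b, which carries an X-box in the promoter printed above, had 0.255, 0.174 and 0.242 CPM in niche libraries, against 22.9, 21.5 and 16.4 CPM in distal libraries (log2 fold change -6.47, SE 0.38, edgeR adjusted p = 2.7e-07). Pifo, the other gene with an X-box, had 9 counts in niche and 468 in distal libraries (log2 fold change -6.11, SE 0.67, edgeR adjusted p = 2.1e-05). Cfap126, known as Flattop for its part in placing basal bodies, had 1.75, 2.57 and 1.93 CPM in niche libraries, against 20.4, 23.5 and 17.3 CPM in distal libraries, and kept 10.2%, close to the share kept by Foxj1 (log2 fold change -3.29, SE 0.25, edgeR adjusted p = 1.4e-06). Mns1, a protein inside the doublet microtubules, had 5.49, 5.74 and 2.35 CPM in niche libraries, against 9.09, 12.4 and 8.28 CPM in distal libraries. It kept 45.6% and passed narrowly (log2 fold change -1.12, SE 0.36, edgeR adjusted p = 0.022), which it did not do without distal replicate 2 (0.087) or niche replicate 3 (0.062). Of the exonic bases of Mns1, 53% overlap exons of Tex9 on the opposite strand, and without a known strand setting reads of this pair cannot be told apart; Tex9 averaged 16.6 TPM in niche and 8.42 TPM in distal epithelium.

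Of the nexin link, ruler and tether genes, Ccdc40, which with Ccdc39 forms the ruler that spaces the arms, had 0.383, 0.305 and 0.121 CPM in niche libraries, against 19.3, 16.2 and 13.2 CPM in distal libraries (log2 fold change -5.82, SE 0.35, edgeR adjusted p = 2.9e-07). Drc7, of the nexin-dynein regulatory complex, had 1 count in niche and 276 in distal libraries, a ratio of 0.00258 (95% counting interval 6.52e-05 to 0.0145). Cfap43 went the other way. It had 52.1, 58.8 and 53.7 CPM in niche libraries, against 38.1, 38.0 and 26.5 CPM in distal libraries, with no overlap (log2 fold change 0.68, SE 0.16, edgeR adjusted p = 0.0035). On the TPM scale Cfap43 had 24.2, 27.8 and 24.1 TPM in niche libraries. In 4T1 cells it was higher still, at 31.1, 35.9 and 29.1 TPM in vivo, and it was the only gene of the 50 above 20 TPM there. Of its exonic bases, 2.32% and 1.16% are shared with other annotated genes on the same strand.

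The 7 other ciliated cell genes kept from 0.45% (Lrriq1) to 15.3% (Tppp3) of their distal means. Ccdc153, a coiled-coil protein used as a ciliated cell marker, had 0.341, 0.305 and 0 CPM in niche libraries, against 30.9, 33.6 and 23.3 CPM in distal libraries (log2 fold change -6.93, SE 0.44, edgeR adjusted p = 3.7e-07). Tppp3 had 14.6, 15.2 and 25.8 CPM in niche libraries, against 109, 125 and 129 CPM in distal libraries (log2 fold change -2.71, SE 0.21, edgeR adjusted p = 1.6e-06). Lrriq1 had 2 counts in niche and 344 in distal libraries, a ratio of 0.00415 (95% counting interval 0.0005 to 0.0151). All niche libraries were below all distal libraries for these 3 genes.

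**Figure D2:**
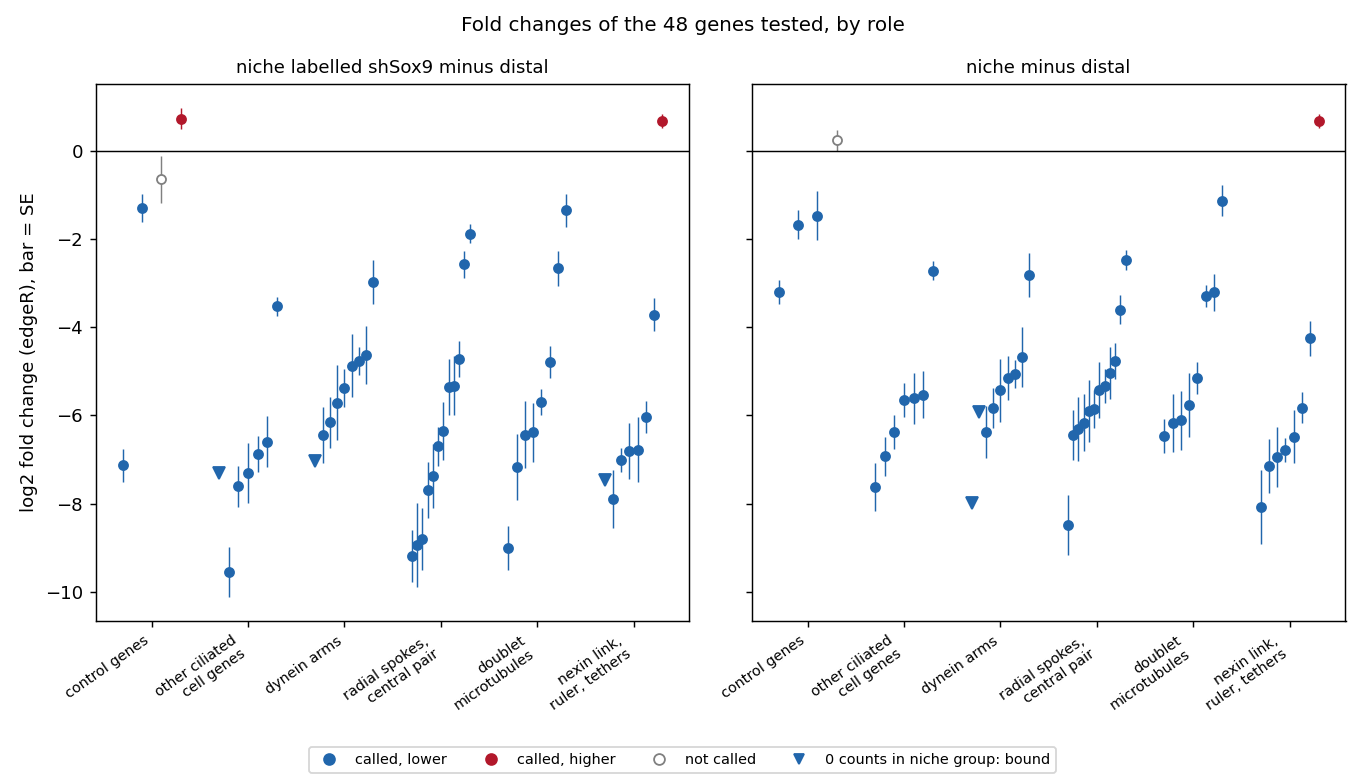
Log2 fold changes from edgeR (points, bars are SE) of the 48 genes tested, by role, for niche epithelium labelled shSox9 minus distal epithelium (left) and niche minus distal epithelium (right). Triangles mark genes with 0 counts in the niche group, drawn at the bound from a floor of 3 counts; points of 11 genes on the left and 4 on the right rest on 1 to 3 niche counts. Nearly all points lie below 0; Cfap43 lies above it in both panels, and Rfx3 is called higher on the left (0.74) and not called on the right (0.25).

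Niche epithelium labelled shSox9 was compared with niche epithelium to ask what the shSox9 treatment changes. Sox9 itself had 81.4, 58.7 and 35.9 CPM in the libraries labelled shSox9, against 59.6, 55.2 and 31.9 CPM in niche libraries. It was thus not lower in the libraries labelled shSox9 (log2 fold change 0.26, SE 0.27, edgeR adjusted p = 0.55), and all directions below are those of the labels. Of the 48 cilia genes tested, 6 were lower and 0 were higher, against 10.8% and 9.68% of all genes tested. Of these 48, 33 passed the filter only through the distal libraries and were scarce in both niche groups. The count is therefore not read against those shares. The median log2 fold change was -0.21, and that of all genes tested 0.02; fitted on the 6 libraries of these groups alone, the median of the cilia genes turned to 0.39. At an unadjusted p below 0.05 in edgeR, 10 genes were lower and 3 were higher, and DESeq2 called 7 lower and 2 higher.

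Foxj1 had the smallest adjusted p of the 48. It had 0.424, 0.466 and 0.425 CPM in niche libraries labelled shSox9, against 5.92, 10.4 and 3.98 CPM in niche libraries, from 27 and 444 counts. Every library labelled shSox9 was below every niche library, at 6.48% of the niche mean (log2 fold change -3.94, SE 0.38, edgeR adjusted p = 0.00012). Cfap126 had 0.565, 0.326 and 0.266 CPM in niche libraries labelled shSox9, against 1.75, 2.57 and 1.93 CPM in niche libraries, also without overlap (log2 fold change -2.40, SE 0.32, edgeR adjusted p = 0.0005). These were the 2 genes called under every setting tried. Tppp3 had 11.3, 8.48 and 11.9 CPM in niche libraries labelled shSox9, against 14.6, 15.2 and 25.8 CPM in niche libraries, a smaller difference without overlap (log2 fold change -0.81, SE 0.21, edgeR adjusted p = 0.02). That call was lost without the second library labelled shSox9 (edgeR adjusted p = 0.079).

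The other 3 calls rested on few counts, and all 3 genes were below the filter when the 6 niche libraries were fitted alone. Armc4, which docks outer dynein arms, had 0 counts in libraries labelled shSox9 and 11 in niche libraries, at least 3.57-fold lower (edgeR adjusted p = 0.022). The spoke head gene Rsph4a had 1 and 14 counts, a ratio of 0.0734 (95% counting interval 0.00174 to 0.482; edgeR adjusted p = 0.026). For Fam183b there were 2 and 14 counts, a ratio of 0.147 (0.0162 to 0.639; edgeR adjusted p = 0.043). Each of the 3 lost its call when single libraries were left out: Armc4 in 4 of the 6 such fits, with edgeR adjusted p of 0.052 to 0.06, and Rsph4a without niche replicate 1 (0.089) or 3 (0.051) or shSox9 replicate 1 (0.063) or 2 (0.091). Fam183b lost it without any of the niche libraries (0.065 to 0.12) and without shSox9 replicate 1 (0.1) or 2 (0.13).

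For the structural genes at large, the 2 niche groups could not be separated at this depth. Dynlrb2 had 0.424, 0.979 and 0.904 CPM in niche libraries labelled shSox9, against 1.06, 0.392 and 0.121 CPM in niche libraries, which overlapped (log2 fold change 0.45, SE 0.53, edgeR adjusted p = 0.6). Rsph1 did not pass (log2 fold change 0.05, SE 0.45, edgeR adjusted p = 0.95). Neither did Dnaic1 (0.22, SE 0.86, edgeR adjusted p = 0.89) or Cfap43, which averaged 54.9 ± 9.34 and 54.9 ± 3.5 CPM (SD, n = 3 each). Rsph9 had 4.71, 3.77 and 6.11 CPM in niche libraries labelled shSox9, against 3.62, 3.22 and 2.72 CPM in niche libraries; the groups did not overlap, but the difference missed the threshold (log2 fold change 0.60, SE 0.22, edgeR adjusted p = 0.073). Hydin, a central pair protein named after its values were seen, had a log2 fold change of 1.03 (SE 0.34, edgeR adjusted p = 0.051), also without overlap. DESeq2 called both Rsph9 and Hydin higher. In edgeR, Hydin was called with RLE scaling and Rsph9 without shSox9 replicate 2.

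**Figure D3:**
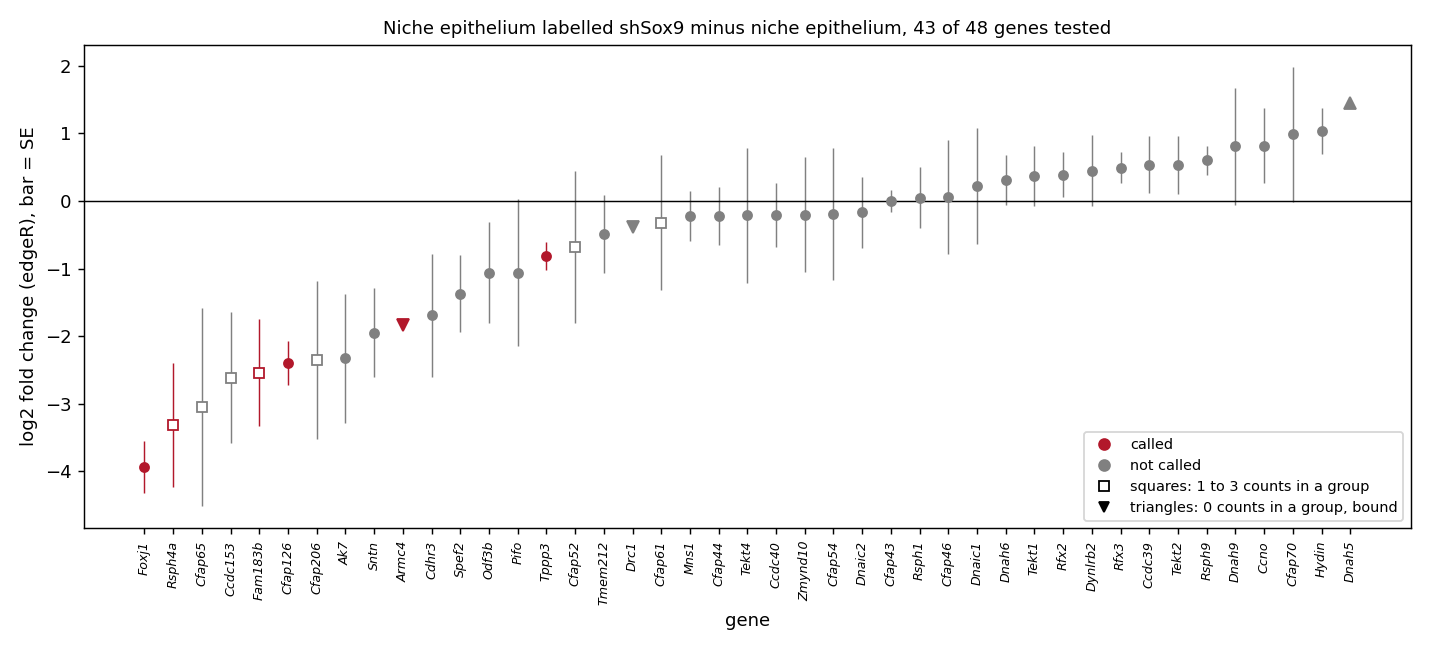
Log2 fold change from edgeR (bars are SE) of niche epithelium labelled shSox9 minus niche epithelium for 43 of the 48 genes tested, in rising order. The 5 genes at 3 counts or fewer in both groups are left out, squares have 1 to 3 counts in a group, and triangles are bounds where a group had 0 counts. The 6 red symbols are the calls, from Foxj1 at -3.94 to Tppp3 at -0.81; most of the other bars reach across or near 0.

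Set against distal epithelium, niche epithelium labelled shSox9 again had nearly the whole set lower. This comparison and that of niche with distal epithelium use the same distal libraries. Of 48 genes, 45 were lower and 2 were higher, against 22.0% and 21.7% of all genes tested, and the median log2 fold change was -6.36. Here too 33 of the 48 passed the filter only through the distal libraries, so nothing is read from the count against that share. All 50 genes without the filter gave 46 lower and 2 higher. Foxj1 stood at 0.701% of its distal mean (log2 fold change -7.13, SE 0.37, edgeR adjusted p = 6.1e-07), and Cfap126 at 1.89% (-5.69, SE 0.3, edgeR adjusted p = 6.2e-07). Drc1, of the nexin-dynein regulatory complex, had 0 counts in libraries labelled shSox9 and 388 in distal libraries, at least 177-fold lower. Lrriq1 was at least 157-fold, Armc4 at least 132-fold and Deup1 at least 39.1-fold lower by the same floor. Ccdc153 had 2 counts against 1321, a ratio of 0.00111 (95% counting interval 0.000134 to 0.00401), and Rsph4a had 1 count against 600, a ratio of 0.00122 (3.09e-05 to 0.00683).

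Rfx3, Rfx2 and Ccno had smaller fold changes from distal epithelium than Foxj1. Rfx3 had 9.98, 8.06 and 12.6 CPM there, against 4.7, 5.8 and 7.86 CPM in distal libraries, with no overlap (log2 fold change 0.74, SE 0.24, edgeR adjusted p = 0.024). This call was lost without distal replicate 1 (0.093) or 2 (0.07) or shSox9 replicate 3 (0.083). Rfx2 had 5.46, 2.89 and 7.76 CPM, against 11.7, 16.5 and 10.8 CPM in distal libraries (log2 fold change -1.28, SE 0.32, edgeR adjusted p = 0.0074). Ccno had 0.801, 1.17 and 0.957 CPM, against 0.742, 1.37 and 2.48 CPM, an overlap that did not pass the test (log2 fold change -0.64, SE 0.53, edgeR adjusted p = 0.36). Cfap43 was higher, with 64.3, 54.7 and 45.6 CPM against 38.1, 38.0 and 26.5 CPM in distal libraries (log2 fold change 0.68, SE 0.16, edgeR adjusted p = 0.0047).

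**Figure D4:**
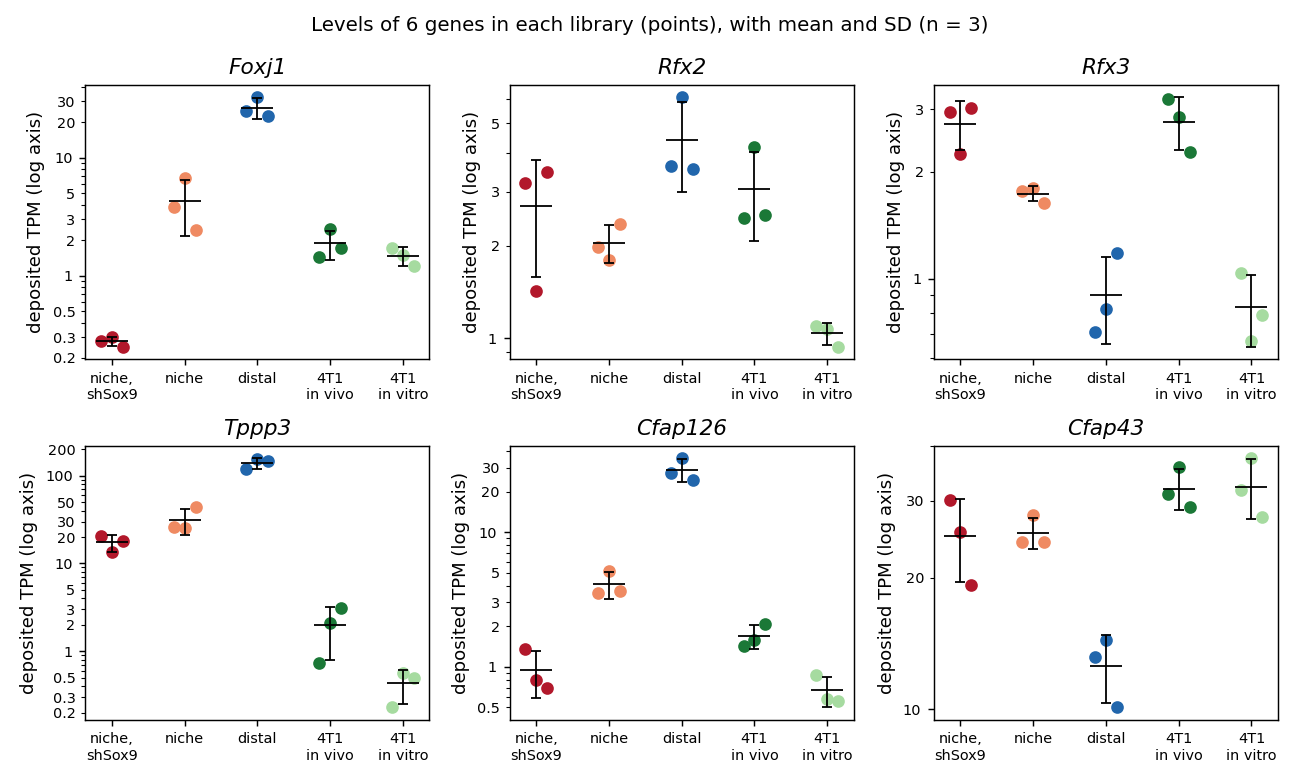
Deposited TPM (log axes) of 6 genes in each library (points), with the mean and SD of 3 libraries. Among epithelial libraries Foxj1, Tppp3 and Cfap126 are lowest in niche libraries labelled shSox9, higher in niche libraries and highest in distal libraries, whereas Rfx3 is highest in niche libraries labelled shSox9 and lowest in distal libraries, Rfx2 overlaps between both niche groups, and Cfap43 is lowest in distal epithelium (12.6 ± 2.21 TPM).

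The 4T1 cells carried little of the motile cilia set. Of the 50 genes, 41 stayed below 1 TPM in every in vivo library and 44 in every in vitro library, and 8 passed the filter on low counts in the 4T1 fit. The comparison of 4T1 cells in vivo with cells in vitro asked what changes as the cells grow out in the lung. Of those 8, 5 were higher in vivo and 0 were lower, against 27.0% and 24.0% of all genes tested; 0 were lower at an unadjusted p below 0.05 in edgeR and 0 in DESeq2. Of the 8, 3 passed the filter only through the in vivo libraries, so the count of higher genes is not read against that share. Nothing in the labels says that the 4T1 libraries came from separate cultures or animals, so the p-values measure the spread between libraries, which may be technical.

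The X-box factors were among the 5. Rfx2 had 4.48, 8.44 and 5.98 CPM in vivo, against 2.0, 2.08 and 2.21 CPM in vitro (log2 fold change 1.58, SE 0.26, edgeR adjusted p = 0.00091). Rfx3 had 11.1, 11.3 and 9.65 CPM in vivo, against 5.02, 3.78 and 4.11 CPM in vitro (log2 fold change 1.32, SE 0.17, edgeR adjusted p = 0.00023). Mns1 had 19.3, 21.7 and 17.9 CPM in vivo, against 11.6, 11.6 and 12.7 CPM in vitro (log2 fold change 0.72, SE 0.12, edgeR adjusted p = 0.0011), and its overlapping neighbour Tex9 averaged 44 and 31.1 TPM. None of these 3 genes overlapped between the groups. Tppp3 had 0.509, 1.1 and 2.26 CPM in vivo, against 0.146, 0.312 and 0.271 CPM in vitro (log2 fold change 2.34, SE 0.6, edgeR adjusted p = 0.0093), and Cfap126 had 0.712, 0.799 and 0.97 CPM, against 0.341, 0.208 and 0.271 CPM (log2 fold change 1.60, SE 0.42, edgeR adjusted p = 0.01). Foxj1 had 2.44, 4.04 and 3.07 CPM in vivo, against 2.93, 2.64 and 2.21 CPM in vitro, and did not pass (log2 fold change 0.30, SE 0.27, edgeR adjusted p = 0.38). Cfap43 did not pass either (-0.07, SE 0.11, edgeR adjusted p = 0.64), with 75.7, 85.3 and 75.2 CPM in vivo, against 78.8, 95.1 and 73.7 CPM in vitro.

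Markers of some host lung cells were higher in the in vivo group. Scgb1a1, the main secretory product of club cells, had 6.41, 9.44 and 11.1 CPM in vivo, against 0 in each in vitro library. The 16 club and secretory genes summed to 50, 65.1 and 73.3 TPM in vivo, against 14.9, 11.2 and 13.9 TPM in vitro (4 of 5 tested were higher, 1 lower), and the 11 alveolar type 2 (AT2) genes to 203, 273 and 811 TPM, against 35.6, 29.4 and 24.8 TPM (7 of 9 higher, 0 lower). Tppp3 was highest in the third in vivo library, as were both lists. Other lists were mixed. Alveolar type 1 genes averaged 49.8 TPM in sum in vivo, against 182 TPM in vitro (2 of 6 tested higher, 2 lower). Mesothelial genes averaged 169 against 372 TPM. Endothelial genes averaged 32.8 against 42.6 TPM, although 5 of 6 tested were higher and 1 lower. Of leukocyte genes 5 of 7 tested were higher and 0 lower, and of fibroblast and mural genes 5 of 5. Among all genes tested, 27.0% were higher and 24.0% lower. How many listed genes passed the filter only through the in vivo libraries was not counted, so nothing is read from the list counts against those shares. The part of host RNA in the 4T1 differences was not tested.

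Some genes high in 4T1 cells in vivo also had RNA in niche libraries. A panel of 6 genes with at least 10 CPM in every 4T1 library in vivo and at most 0.2 CPM in every distal library, chosen on these libraries, reached 21.6%, 17.2% and 12.5% of its in vivo level in niche libraries labelled shSox9, 19%, 17% and 10.3% in niche libraries, and 0.206%, 0.493% and 0.436% in distal libraries. Multiplying the in vivo mean of Foxj1 by these shares gives 0.406, 0.323 and 0.235 TPM for the libraries labelled shSox9, where 0.28, 0.3 and 0.25 TPM were measured. For niche libraries it gives 0.357, 0.32 and 0.194 TPM, where 3.83, 6.72 and 2.46 TPM were measured. For Cfap43 the products were 6.92, 5.51 and 4.01 TPM in libraries labelled shSox9 and 6.09, 5.45 and 3.3 TPM in niche libraries, against measured levels of 30.1, 25.5 and 19.3 TPM and 24.2, 27.8 and 24.1 TPM. For Mns1 the products were near the measured levels, at 3.09, 2.46 and 1.79 TPM in libraries labelled shSox9, where 1.71, 2.83 and 1.18 TPM were measured, and at 2.72, 2.43 and 1.47 TPM in niche libraries, where 2.52, 4.15 and 1.62 TPM were measured. The low distal shares were set by the choice of the panel. Niche cells may express panel genes themselves, and the part of 4T1 RNA in the differences was not tested. The 41 cilia genes under 1 TPM in all in vivo 4T1 libraries summed to 18.1, 21.3 and 21.4 TPM in niche libraries labelled shSox9, 20.6, 19.8 and 16.9 TPM in niche libraries and 460, 502 and 343 TPM in distal libraries (4.66% and 4.4% of the distal mean).

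Other genes of motile cilia, 73 not among the 50, were also mostly lower in the niche. Of 67 tested, 59 were lower and 3 higher in niche than in distal epithelium, beside 25.8% and 28.5% of all genes, with a median log2 fold change of -4.24. How many passed the filter only through the distal libraries was not counted, so nothing is read from the count against those shares. Summed, the 73 genes stood at 46.8% of the distal mean TPM in niche epithelium (33.9% on the CPM scale) and at 81.5% in 4T1 cells in vivo. Trp73, a transcription factor acting upstream of Foxj1, had 0 counts in niche libraries and 154 in distal libraries. The 3 higher ones were E2f4 (log2 fold change 0.40, SE 0.13, edgeR adjusted p = 0.018), Plk4 (1.79, SE 0.26, edgeR adjusted p = 0.00016) and Cep152 (0.54, SE 0.14, edgeR adjusted p = 0.0076). E2f4 is a cell cycle factor that multiciliated cells reuse, and Plk4 and Cep152 act in centriole duplication of dividing cells too. In niche epithelium labelled shSox9 against niche epithelium 5 of 67 were lower and 0 higher, beside 10.8% and 9.68% of all genes. Among the 5 was the dynein assembly factor Dnaaf3 with 4.14, 3.08 and 1.44 CPM, against 10.7, 12.9 and 16.7 CPM (log2 fold change -2.21, SE 0.32, edgeR adjusted p = 0.00087). The others were Lrrc23 (-2.74), Dnah2 (-1.65), Mlf1 (-0.96) and Cep152 (-0.67), with edgeR adjusted p of 0.0062, 0.02, 0.0049 and 0.007. These genes were named after their values were seen.

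Genes of intraflagellar transport and the Bardet-Biedl complex, which serve immotile primary cilia as well, had a median fold change nearer to 0. Of 33 tested, 17 were lower and 1 was higher in niche than in distal epithelium, against 25.8% and 28.5% of all genes, with a median log2 fold change of -0.34. Ift88, for example, had 11.2, 11.8 and 9.24 CPM in niche libraries, against 17.8, 20.4 and 15.8 CPM in distal libraries (log2 fold change -0.74, SE 0.16, edgeR adjusted p = 0.0019). Their sum lay above the distal mean on the TPM scale (124% and 112% in niche epithelium labelled shSox9 and niche epithelium) but below it on the CPM scale (80.9% and 72.5%). In niche epithelium labelled shSox9 against niche epithelium 4 were higher and 0 lower, near the 9.68% of all genes called higher, with a median of 0.15. In 4T1 cells in vivo against in vitro 17 were higher and 1 was lower, against 27.0% and 24.0% of all genes. Ift172 was among them (log2 fold change 1.52, SE 0.1, edgeR adjusted p = 6e-06).

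Other cell type lists moved with the epithelial groups and are given as percent of their distal mean summed TPM. In niche epithelium labelled shSox9 and in niche epithelium, the 50 cilia genes stood at 11.1% and 13.9%, the 16 club and secretory genes at 15.8% and 15.4%, the 11 AT2 genes at 26.6% and 7.1%, and the 8 alveolar type 1 genes at 26.2% and 11.5%. Between the niche groups 10 of 11 AT2 genes were higher in the libraries labelled shSox9. Of 14 club and secretory genes tested 1 was higher and 1 was lower, beside 9.68% and 10.8% of all genes. Against distal epithelium, 13 of the 14 club and secretory genes, all 11 AT2 genes and 2 of 3 neuroendocrine genes tested were lower in niche epithelium. Of all genes tested, 28.5% were higher and 25.8% lower in niche than in distal epithelium. In niche epithelium labelled shSox9 these shares were 21.7% and 22.0%. How many listed genes passed the filter through a single group only was not counted, so nothing is read from the list counts against those shares. The 6 pan-epithelial genes stood at 153% and 157% (89.1% and 89.3% on the CPM scale), with 1 higher and 1 lower between the niche groups. Against distal epithelium, 1 of these 6 was higher and 4 were lower in each niche group, unlike their summed TPM. Their median log2 fold changes were -1.71 in niche epithelium labelled shSox9 and -1.32 in niche epithelium. Fibroblast and mural genes stood at 480% and 455%, leukocyte genes at 27.9% and 17.3%, basal cell genes at 127% and 241%, endothelial genes at 100% and 146%, and mesothelial genes at 103% and 144%. By gene, 5 of 10 leukocyte genes were higher and 3 lower in niche than in distal epithelium (median log2 fold change 0.28), and 2 of 6 basal genes tested were higher and 3 lower (-1.69), unlike the sums of these lists. On the CPM scale the cilia genes stood at 13.4% and 14.8%, while basal (95%) and endothelial genes (69.1%) in niche epithelium labelled shSox9 and mesothelial genes in both groups (52.8% and 75.5%) were below the distal mean. Epcam, the pan-epithelial gene named in the titles, had 32.1, 26.5 and 23.1 CPM in niche libraries labelled shSox9, 64.4, 69.4 and 28.8 CPM in niche libraries and 102, 83.9 and 102 CPM in distal libraries. The part of these shifts in cell make-up in the cilia results was not tested.

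**Figure D5:**
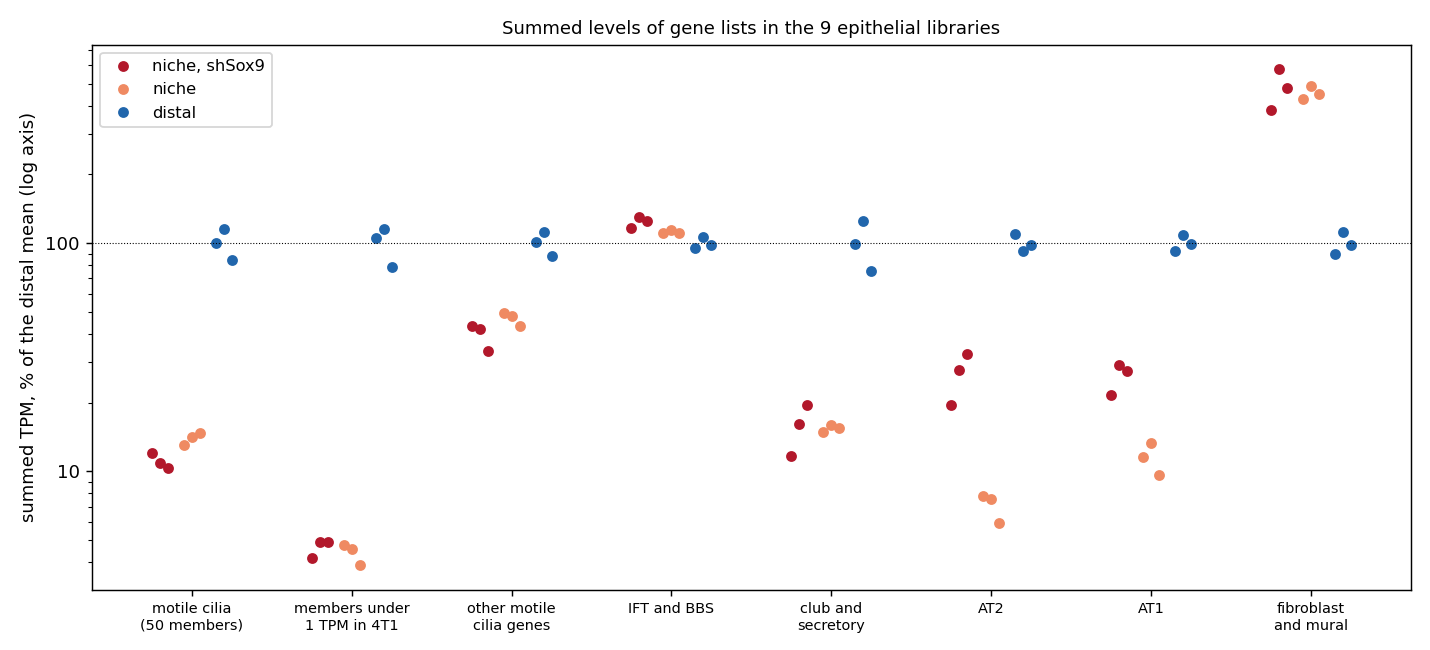
Summed TPM of gene lists in the 9 epithelial libraries, as percent of the distal mean (log axis, dotted line at 100). The cilia genes stand at 11.1% and 13.9% on average in the niche groups, and those under 1 TPM in 4T1 cells at 4.66% and 4.4%, while intraflagellar transport (IFT) and Bardet-Biedl (BBS) genes lie at 124% and 112% (80.9% and 72.5% on the CPM scale, below the distal mean).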

How the data were processed

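RNA was sequenced from 15 libraries in 5 groups of 3, taken from the sample titles. The replicate mark in a title names a library and was not used to pair libraries in the main fits. Per the submitters' processing notes, the authors made the deposited expected counts and TPM with RSEM on GRCm38 and used DESeq2; the sources used here do not give versions, aligner, annotation release or strand setting. The deposited FPKM were not used. Gene identifiers were matched to GENCODE M21 (54723 of 54838, 99.79%).

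Expected counts were rounded to whole numbers and compared in edgeR 4.0.16 under R 4.3.3 by its quasi-likelihood test, after filterByExpr (minimum count 10) and TMM scaling and without a block. P-values were adjusted by Benjamini-Hochberg across every tested gene, and 0.05 was the threshold. The SE given with edgeR values is the absolute log2 fold change divided by the square root of the F statistic of that test. The 9 epithelial libraries were fitted together (17640 genes) and the 6 libraries of 4T1 cells apart (14022 genes). Folds against 0 counts used a floor of 3 counts over the group, and 1 to 3 counts gave a ratio of scaled counts with a 95% counting interval; both cover counting error only. Levels across genes or kinds of cell are TPM, and CPM after TMM scaling serve within a fit. Alternatives were DESeq2 1.42.0, RLE scaling, no filter, other libraries in the fit, limma 3.58.1 on log2(TPM + 0.1), a replicate block and leaving out each library. The test was tried on simulated counts first.

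Values by library, or counts summed over a group, are given for genes chosen by rule. These are the 6 control genes and the 2 genes of each other role with the highest distal TPM. They also include all genes called in niche epithelium labelled shSox9 against niche epithelium. Up to 5 called genes with the largest fold change were added from each other comparison. The genes and lists were chosen with earlier results of these data known.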

Additional observations from a re-analysis of the deposited data

How the results depend on the processing

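No called gene changed direction under the alternatives, but the median log2 fold change of the cilia genes for niche epithelium labelled shSox9 against niche epithelium, -0.21, turned to 0.39 in the fit of those 6 libraries. Of the cilia genes higher in niche than in distal epithelium there were 2 with limma on log2 TPM, where the median of all genes shifts to 0.49 and that of the cilia genes to -4.03. In niche epithelium labelled shSox9 against niche epithelium, 2 were higher with DESeq2, 1 with RLE scaling, 1 without the filter and 0 to 2 with single libraries left out. In the same comparison 2 were lower when only its 6 libraries were fitted, and 3 to 6 with single libraries left out, the fewest without niche replicate 1 or shSox9 replicate 2. Against distal epithelium 1 to 2 were higher in the libraries labelled shSox9 with single libraries left out. In 4T1 cells in vivo against in vitro, 12 were higher and 1 lower with all 15 libraries fitted, 11 higher with limma and 9 without the filter. The causes were not tested. Calls lost for single genes stand beside their values, except that in limma Ccno (0.33) and Mns1 (0.055) were lost for niche against distal, Rfx2 (0.13) for shSox9 against distal, and Rsph4a (0.22) and Armc4 (0.064) for shSox9 against niche, that Fam183b was lost with DESeq2 (0.054) and Tppp3 with 6 libraries (0.053; Rsph4a, Fam183b and Armc4 were then below the filter), and that in 4T1 cells Cfap126 was lost without in vitro replicate 2 (0.063) and Mns1 with 15 libraries (0.056); all are adjusted p. Same-numbered niche libraries deviated together weakly (r = 0.107, 0.0755 and 0.0781, each best with its own number), and those of 4T1 cells did not (0.0577, -0.034 and 0.0458). Whether niche libraries of the same number shared a batch was not tested, and the main fits had no block. With the replicate block, 5 genes were lower in niche epithelium labelled shSox9 than in niche epithelium (Fam183b at 0.068), and the other counts of calls were unchanged. Genes near the floor of 3 counts cannot be told from absence at this depth.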
